A study of Bos taurus with 88 samples.

Results

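The beef calves born to Charolais × Limousin cows (CL) were compared between 72 h and 168 h of age, with 7 calves sampled at both ages. The libraries were chosen by the breed and age in their labels, which gave 14 of the 88 RNAseq libraries of the study, and the 2 libraries of each calf were joined by its tag number. The whole study followed 22 calves at 0, 48, 72 and 168 h after birth. The CL calves and the 7 calves of Limousin × Friesian cows (LF) stayed with their dams and suckled freely, while the 8 Holstein dairy calves (H) were given colostrum by hand. Both beef groups had Aberdeen Angus or Charolais sires, so CL and LF name the cow and not a pure breed, and sire was not part of any fit. The contrast is age within the same calf, with no unfed or untreated group beside it.

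A calf is born almost without circulating antibody, because the bovine placenta passes very little, and takes it up from colostrum in the first day of life. In the days that follow, the blood also changes in its cells, as granulocytes, lymphocytes, platelets and young red cells enter and leave the circulation at different rates. RNA from whole blood holds the transcripts of all these cells together. A lower count for a gene at 168 h may therefore come from fewer cells of a type or from less RNA per cell, and the 2 cannot be told apart in these libraries.

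Genes are listed by Ensembl identifier in the count files, and the files do not pair the identifiers with symbols. The genes are therefore described by their number, level, course over age and behaviour in single calves, and only the 2 largest rises and the 2 largest falls are given by identifier. For the same reason the labelled tissue was not checked against marker genes of blood cells.

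The reads counted on genes ranged from 19940641 to 34734616 per library at 72 h (median 22084819) and from 19628733 to 27552284 at 168 h (median 25387778). At this depth, 3 counts in a library correspond to 0.0864 to 0.153 CPM, a unit in which counts are brought to the same library size. Some libraries stood apart in how much a few genes took. The 10 most abundant genes held 23.5% of the counts of calf 4 and 28.5% of those of calf 5 at 72 h, and 4.69 to 13.3% in the other 12 libraries. Reads mapping to several places made up 24.1% and 22.2% of these libraries, while the highest share in any other was 16.1%, in calf 1 at 168 h. The gene with the most counts, ENSBTAG00000038748, was singled out after its values were seen. It took 17.7% of the counts of calf 4 and 19.7% of those of calf 5 at 72 h, but 0.921% and 1.42% in the same calves at 168 h. In calf 1 the order was the other way, with 0.453% at 72 h and 7.73% at 168 h. Its log2 fold change of −2.76 (standard error, SE, 1.4) did not reach the threshold (Benjamini-Hochberg adjusted p = 0.22 by edgeR).

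**Figure D1:**
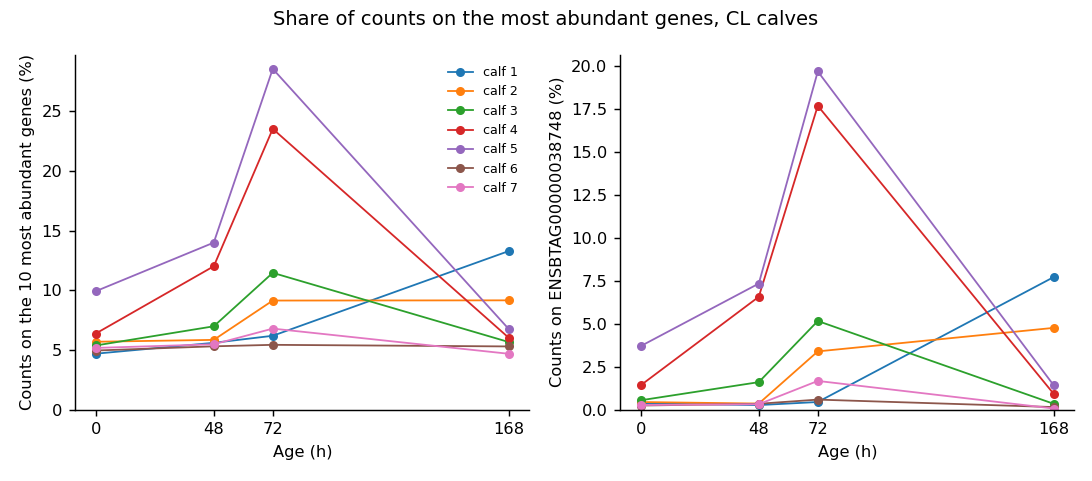
Share of the counts on genes, in percent, taken by the 10 most abundant genes (left) and by ENSBTAG00000038748 (right) in each CL calf at 0, 48, 72 and 168 h, with a line for each calf. Calves 4 and 5 reach 23.5% and 28.5% on the left at 72 h, while at 168 h the highest value is that of calf 1, at 13.3%.

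The factor by which TMM normalization (edgeR's correction for a few genes taking many of the counts) scaled the libraries was higher at 168 h in 7 of 7 calves. Its range was 0.776 to 1.15 at 72 h and 1.04 to 1.21 at 168 h. An exact sign-flip permutation test over the 7 calves gave a two-sided p = 0.0156, the smallest it allows, and an adjusted p = 0.172 over the 11 library measures compared. The other 10 measures, among them depth, the number of genes at 1 CPM or more and the distance of a calf from the rest, had adjusted p-values from 0.602 to 1 in the same exact test.

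Between 72 h and 168 h, most of the genes called as changed in CL calves fell when the libraries were scaled by TMM. Of the 12770 genes tested, 731 were differentially expressed genes (DEG), with 162 upregulated and 569 downregulated at 168 h, so that 77.8% of the DEG were downregulated. Genes were called DEG where edgeR's quasi-likelihood test, with the calf as a block and adjustment by Benjamini-Hochberg, gave an adjusted p under 0.05 and the fold change was at least 1.5. Over all genes tested, 5.72% were called, 1.27% upwards and 4.46% downwards. The median log2 fold change over all genes was 0.0167, and for 30.5% of them the p-value before adjustment was under 0.05.

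The number of DEG depended strongly on the model and on the calves in it. Without the block by calf, edgeR called 2 genes, both downregulated. DESeq2 called 1091 genes with the block (218 upregulated, 873 downregulated) and 683 without it (143 and 540). Without calves 4 and 5, whose 72 h libraries stood apart, 277 genes were called (26 upregulated, 251 downregulated), and without calf 1 as well, 38, all downregulated. Without calves 4 and 5, all 731 genes kept their direction, with a median log2 fold change of 0.73 for the upregulated and −0.82 for the downregulated genes. Calves 3, 5 and 7 each have 1 library with an R in its title, and without them 8 upregulated and 96 downregulated genes were called. A fit of all 88 libraries called 820 genes, and 85 when the L number of each library title was added to it. Neither the R nor the L number is explained in the labels. The changes themselves moved little in these fits. All these fits, and those without calves 4 and 5, include libraries in which the genes were chosen. A kept direction is therefore no further test of the DEG. With the L number all 731 genes kept their direction, and the median log2 fold change went from 0.81 to 0.79 for the upregulated and from −0.84 to −0.80 for the downregulated genes. Without calves 3, 5 and 7, the genes that still passed the filter (all but 1 upregulated and 2 downregulated) also kept their direction, with medians of 0.76 and −0.84. The upregulated genes called fell to 93 without calf 4, 93 without calf 5 and 99 without calf 3.

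The excess of downregulated genes depended on the scaling of the libraries. Scaling to library totals alone gave 449 upregulated and 295 downregulated genes, so that 39.7% were downregulated, and moved the median log2 fold change of all genes from 0.02 to 0.20. With ENSBTAG00000038748 removed before scaling to library totals, there were 311 upregulated and 402 downregulated genes. With calves 4 and 5 left out, library totals gave 59 upregulated and 174 downregulated genes. Under each of these scalings all 162 upregulated and all 569 downregulated genes kept their direction, and under library totals 158 and 285 of them were called. The scalings use libraries in which the genes were chosen, so the kept direction is again a description only.

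Most of the DEG changed by less than a factor of 2. The upregulated genes had a median log2 fold change of 0.78 (quartiles 0.68 and 1.05, median standard error 0.174) and the downregulated genes −0.86 (quartiles −0.71 and −1.19, median standard error 0.172). A fold change of at least 2 was reached by 48 upregulated and 204 downregulated genes, of at least 3 by 12 and 49, and of at least 4 by 9 and 13. The largest rises were thus larger than the largest falls, at a log2 fold change of 3.83 against −2.58. When edgeR took a change of 1.5-fold as its null, 2 genes were called, both downregulated.

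The upregulated genes lay at lower levels than the downregulated ones. Their median level over the 14 libraries was 8.18 CPM (quartiles 2.5 and 17.1), against 18.1 CPM (4.83 and 77.0) for the downregulated genes and 21.7 CPM (5.85 and 60.0) for all genes tested. CPM is not divided by transcript length, so these levels compare counts and not molecules. Between 1 and 10 CPM, 82 of 3400 genes (2.41%) were upregulated and 192 (5.65%) downregulated. Between 100 and 1000 CPM, 13 of 1821 (0.714%) were upregulated and 5.77% downregulated. Among the 97 genes at 1000 CPM or more, 5 were downregulated and 0 upregulated, and 37 of the 868 genes under 1 CPM were called. The share upregulated was highest between 1 and 10 CPM, whereas the share downregulated ran from 3.34% to 5.77% with no steady order over the 5 classes.

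**Figure D2:**
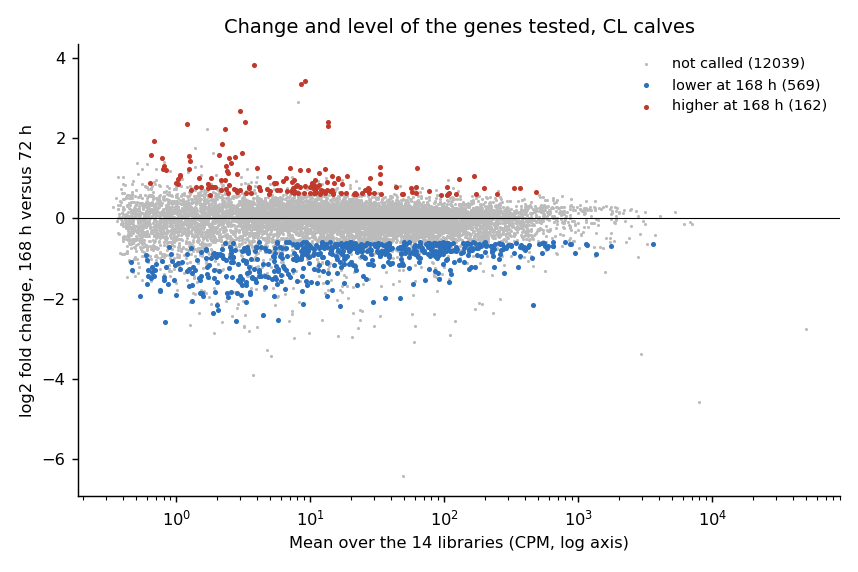
Log2 fold change at 168 h versus 72 h against the mean level over the 14 CL libraries in CPM (log axis), for each of the 12770 genes tested. The 569 downregulated genes (blue) extend to levels above 1000 CPM, while the 162 upregulated genes (red) lie below it and include the largest fold changes among the genes called.

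The direction was shared by most calves for nearly all DEG. Of the 162 upregulated genes, 146 were higher at 168 h in 7 of 7 calves and 16 in 6 of 7. Of the 569 downregulated genes, 473 were lower in 7 of 7, 95 in 6 of 7 and 1 in 5 of 7. Among all genes tested, 16% moved the same way in 7 of 7 calves. Since the calls rest on the same calves, these counts describe the DEG and are no further test of them.

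The size of the change differed between calves. The median log2 change of the upregulated genes was 0.55 in calf 7, 0.64 in calf 6, 0.67 in calf 1, 0.86 in calf 4, 0.98 in calf 3, 1.05 in calf 2 and 1.14 in calf 5. For the downregulated genes it ranged from −0.66 in calf 7 to −1.17 in calf 5, with a mean of −0.85 ± 0.167 (SD, n = 7). Calf 7 moved least and calf 5 most in both sets. Over all genes tested, 4.21% changed by a factor of at least 2 in calf 7 and 15.2% in calf 5.

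Although each calf moved, the levels of different calves overlapped between the ages for most DEG. The lowest level at 168 h was above the highest at 72 h for 14 of the 162 upregulated genes, and the highest at 168 h was below the lowest at 72 h for 9 of the 569 downregulated genes. Over all genes tested, 0.188% were separated in this way upwards and 0.11% downwards. The summed level of the downregulated genes shows the overlap. It ran from 40135 to 90982 CPM at 72 h (median 54196) and from 23122 to 52404 CPM at 168 h (median 31126). For the upregulated genes the sum ran from 2279 to 4202 CPM at 72 h (median 3525) and from 3515 to 6660 CPM at 168 h (median 5765).

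The 2 largest rises were those of ENSBTAG00000047816 and ENSBTAG00000047449, chosen as the DEG with the largest log2 fold changes that moved the same way in 7 of 7 calves and averaged at least 1 CPM at either age. At 72 h, ENSBTAG00000047816 ran from 0 CPM in calf 1 to 6.79 CPM in calf 7, with a median of 0.296. At 168 h it ran from 0.311 CPM in calf 6 to 17.1 CPM in calf 5, with a median of 6.17. Calf 7 alone was already high at 72 h, where the other 6 calves reached at most 0.374 CPM, and the ages overlapped through calves 6 and 7. The log2 fold change was 3.83 (SE 0.94, Benjamini-Hochberg adjusted p = 0.039 by edgeR), and the log2 change in calf 7 was 0.01. Leaving out any 1 of calves 1 to 6 gave a log2 fold change of 3.36 to 4.03 with adjusted p-values from 0.065 to 0.099 in edgeR, so that the call was lost, and without calf 7 the gene did not pass the filter on low counts. Without the block its log2 fold change was 2.42 (edgeR adjusted p = 0.18), and over the alternatives tried the adjusted p ranged from 2.9e-05 to 0.37.

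ENSBTAG00000047449 followed the same calves. At 72 h its level ran from 0.218 CPM in calf 1 to 14.3 CPM in calf 7 (median 0.562), and at 168 h from 2.25 CPM in calf 6 to 42.2 CPM in calf 5 (median 12.8). Again calf 7 was high at both ages, and 6 of 7 calves at 72 h lay at or under 2.34 CPM. The log2 fold change was 3.42 (SE 0.75, Benjamini-Hochberg adjusted p = 0.029 by edgeR), and the call was lost when any 1 of calves 1 to 5 was left out, with log2 fold changes of 3.00 to 3.67 and edgeR adjusted p-values from 0.055 to 0.081. Its change without calf 7 was 4.05 (edgeR adjusted p = 0.015), without the block 2.46 (edgeR adjusted p = 0.14), and the adjusted p ranged from 1e-06 to 0.29 over the alternatives.

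The largest fall was that of ENSBTAG00000032515, a gene of low level. It ran from 0.624 CPM in calf 4 to 3.83 CPM in calf 1 at 72 h (median 1.1), on 12 to 88 counts. At 168 h it ran from 0.0345 CPM in calf 6 to 0.485 CPM in calf 1 (median 0.233), on 1 to 10 counts. The highest calf at 168 h was below the lowest at 72 h, so the ages did not overlap. The log2 fold change was −2.58 (SE 0.31, Benjamini-Hochberg adjusted p = 0.0025 by edgeR). It stayed a DEG whichever calf was left out (log2 fold change −2.41 to −2.72, edgeR adjusted p at most 0.0097), but not in edgeR without the block (adjusted p = 0.1). With all 88 libraries and the L number in the fit its log2 fold change was −2.05 (edgeR adjusted p = 0.064). The call was also lost without calves 1, 4 and 5 (edgeR adjusted p = 0.083) and with a 1.5-fold change as the null (edgeR adjusted p = 0.053). The adjusted p ranged from 5.2e-08 to 0.1 over the alternatives.

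ENSBTAG00000008787 had the second largest fall and varied more between calves. Its level at 72 h ran from 0.832 CPM in calf 4 to 16.3 CPM in calf 2 (median 2.8), and at 168 h from 0.104 CPM in calf 6 to 1.31 CPM in calf 1 (median 0.521). Calves 1 and 2 were the highest at 72 h, and the 3 lowest calves at that age lay within the range of 168 h. The log2 fold change was −2.56 (SE 0.61, Benjamini-Hochberg adjusted p = 0.031 by edgeR). Calf 2 fell by 5.92 on the log2 scale and calf 7 by 0.65. Without calf 2 the log2 fold change was −2.04 (edgeR adjusted p = 0.0097). The call was lost without calf 1, 3, 4, 5 or 6 (edgeR adjusted p 0.051 to 0.076, log2 fold change −2.45 to −2.78) and without the block (−3.14, edgeR adjusted p = 0.1), and the adjusted p ranged from 1.3e-05 to 0.32 over the alternatives.

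**Figure D3:**
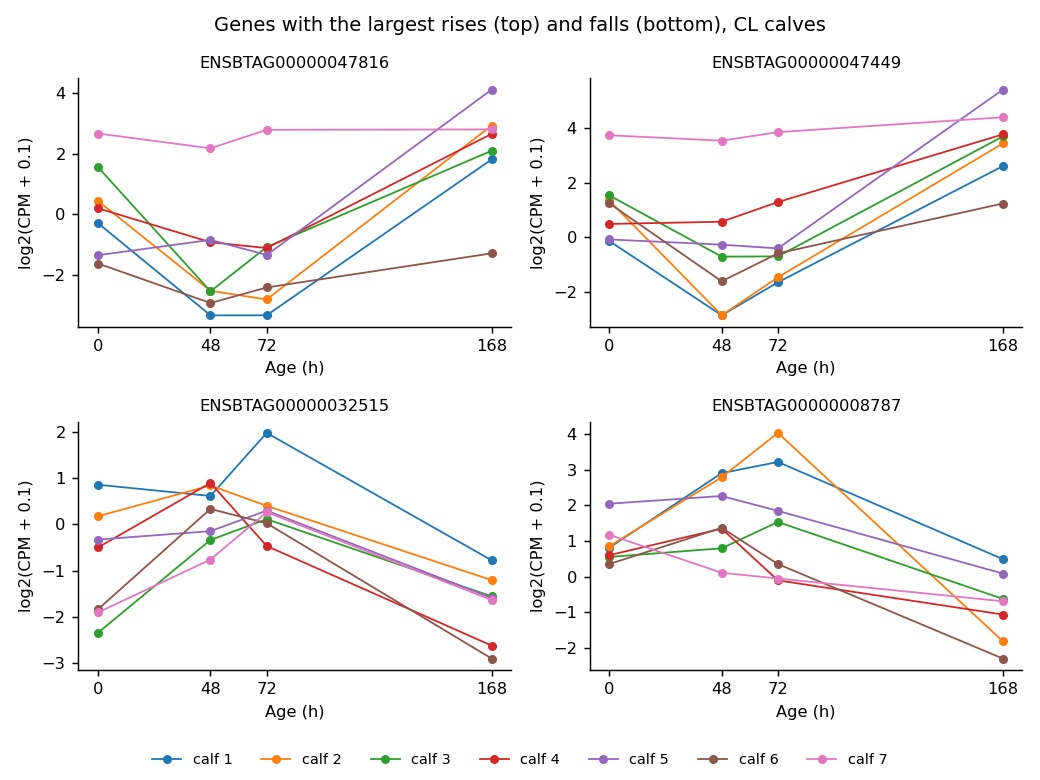
Level of the 2 genes with the largest rises (top) and the 2 with the largest falls (bottom) as log2(CPM + 0.1) in each CL calf at 0, 48, 72 and 168 h. Calf 7 stays high at every age for both upper genes (6.79 and 14.3 CPM at 72 h), and the 7 calves of ENSBTAG00000032515 at 168 h lie below all 7 at 72 h.

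Over the 4 ages, the 2 sets of DEG followed different courses. For this description, the log2 CPM of each gene was centred on its mean over the 28 CL libraries, and the median over the genes was taken in each library. At birth, 48 h and 72 h the upregulated genes stood at −0.17 ± 0.221, −0.19 ± 0.229 and −0.23 ± 0.38, and they reached 0.68 ± 0.299 at 168 h (SD, n = 7 calves each). The downregulated genes climbed from −0.15 ± 0.204 through 0.07 ± 0.185 to 0.47 ± 0.402 at 72 h and then dropped to −0.39 ± 0.412 (SD, n = 7 each). All genes tested together stayed between −0.01 and 0.02 at the 4 ages. The distance between 72 h and 168 h is fixed by how the DEG were chosen. The choice also acts on the step from 48 h to 72 h, since it favours downregulated genes high at 72 h. Only the libraries of 0 h and 48 h had no part in the choice. Their centred levels are still not free of it, since the mean of each gene takes in the 72 h and 168 h libraries.

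The mean was highest at 72 h among the 4 ages for 415 downregulated genes (72.9%), and at 0 h for 19% of them, where over all genes tested it was highest at 72 h for 22.1% and at 0 h for 33.3%. The choice of genes higher at 72 h than at 168 h favours such a peak, so these shares are a description only. Calf 1 had the highest centred level of the downregulated genes at 72 h and at 168 h, at 1.16 and 0.36, and the lowest of the upregulated genes, at −0.71 and 0.08.

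**Figure D4:**
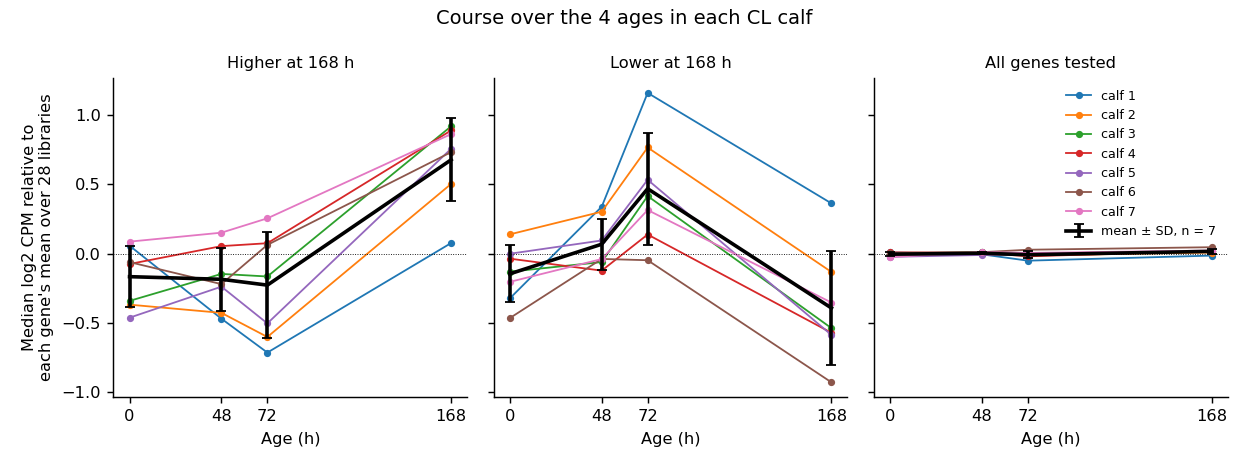
Median log2 CPM, relative to each gene's own mean over the 28 CL libraries, of the 162 upregulated genes (left), the 569 downregulated genes (middle) and the genes tested (right) in each CL calf at 0, 48, 72 and 168 h, with the mean ± SD of the 7 calves in black. The upregulated genes lie near −0.2 until 72 h and reach 0.68 at 168 h, while the downregulated genes climb to 0.47 at 72 h and fall to −0.39.

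Some of the DEG had already changed in the first 2 days. From birth to 48 h, in other libraries of the same 7 calves, 7.91% of 12852 genes rose and 8.68% fell past the same threshold. Of the 560 later downregulated genes tested there, 29.5% had been upregulated at 48 h and 12.9% (72 genes) downregulated. The former made up 16.2% of the 1017 genes upregulated at 48 h. Of the 155 later upregulated genes tested there, 35 (22.6%) had been upregulated and 28 (18.1%) downregulated. The median log2 fold change at 48 h versus 0 h was 0.17 for the later downregulated genes, −0.04 for the later upregulated genes and −0.0047 for all genes tested. ENSBTAG00000047816 had fallen at 48 h (log2 fold change −1.90, standard error 0.66, edgeR adjusted p = 0.043 with Benjamini-Hochberg adjustment), and ENSBTAG00000032515 had risen (1.03, standard error 0.35, edgeR adjusted p = 0.037). ENSBTAG00000047449 and ENSBTAG00000008787 did not pass the threshold there, with log2 fold changes of −1.61 and 0.79 (edgeR adjusted p = 0.055 and 0.11).

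The genes called in CL calves moved the same way in LF calves, and with few exceptions in H calves, in libraries that had no part in their choice. Of 12738 genes tested in LF calves, 4.22% were upregulated from 72 h to 168 h and 9.5% downregulated. All 160 upregulated CL genes tested in LF calves had a positive log2 fold change there (median 1.06), and all 564 downregulated CL genes tested had a negative one (median −1.06). Of these, 68.1% and 81.6% were DEG in LF calves in the same direction, and 0 in the opposite direction. They made up 20.3% of the 538 genes that rose in LF calves and 38% of the 1210 that fell. Over all 12602 genes tested in both breeds, 85.3% had the same sign.

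In H calves, 3.44% of the 12541 genes tested were upregulated at 168 h and 5.55% downregulated. Of the 162 upregulated CL genes, 158 had a positive log2 fold change there (97.5%, median 1.13) and 100 were upregulated DEG. Of the 560 downregulated CL genes tested, 543 had a negative one (97.0%, median −0.69) and 272 were downregulated DEG, again with 0 in the opposite direction. Over all 12431 genes tested in both, 71.6% had the same sign. Pearson's r between the log2 fold changes of CL calves and those of the other breed, across genes, was 0.869 for LF and 0.755 for H. Genes are not independent replicates, so no p-value is attached.

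Calls in all 3 groups were common. In the same direction, 62 of the 162 upregulated and 239 of the 569 downregulated CL genes were DEG in both LF and H calves, whereas 15 and 76 were DEG in CL calves alone. Being called in CL calves alone does not show that the change differed between breeds. By single calves, 39 upregulated genes (24.1%) were higher and 156 downregulated genes (27.4%) lower at 168 h in all 22 calves of the study, while 1.1% and 1.88% of all genes tested were. The 22 include the 7 CL calves in which the genes were chosen, which raises the shares of the DEG. They are a description only. The spread over single calves is not comparable between breeds, since the genes were chosen in CL calves. The median log2 change of the 569 downregulated genes ran from −0.56 to −2.07 over the 7 LF calves and from −0.29 to −1.17 over the 8 H calves, beside −0.66 to −1.17 over the 7 CL calves.

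**Figure D5:**
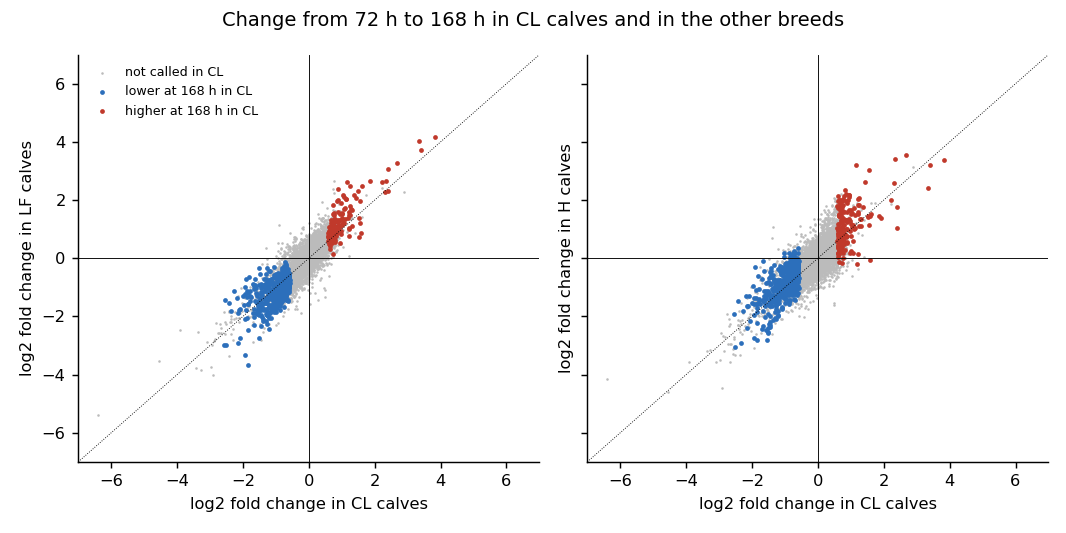
Log2 fold change at 168 h versus 72 h in LF calves (left) and H calves (right) against that in CL calves for the genes tested in both, with the genes called in CL calves in colour and equal change along the dotted line. All 724 coloured genes on the left lie in the quadrants of equal sign, while on the right 4 red and 17 blue genes do not.

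The change was not shown to differ between CL and LF calves, and between CL and H calves the answer depended on the tool. The difference between the CL change and the LF change, tested in a fit of both breeds with the calf as a block, gave 0 DEG of 13204 genes (0.0%). The smallest adjusted p was 0.978 (edgeR with Benjamini-Hochberg adjustment), and for 429 genes (3.25%) the unadjusted p was under 0.05. DESeq2 with the calf as a block also called 0 genes. The difference between the CL and H changes gave 0 DEG of 13137 genes (0.0%) in edgeR, with a smallest adjusted p of 0.234 and 916 genes (6.97%) at an unadjusted p under 0.05. DESeq2 called 61 genes for the same contrast, 4 with a higher and 57 with a lower log2 change in CL calves. The median standard error of the difference was 0.192 on the log2 scale against LF and 0.233 against H, where that of the change in CL calves alone was 0.113. H calves also differed from CL calves in feeding and farm, which cannot be told apart from breed.

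The 4 genes given by identifier moved in the same direction in each breed in which they were tested. ENSBTAG00000047816 changed by 4.16 on the log2 scale (SE 0.49) in LF calves and by 3.39 (SE 0.31) in H calves, and ENSBTAG00000047449 by 3.73 (SE 0.44) and 3.21 (SE 0.24). All 4 of these changes were DEG, with edgeR adjusted p-values of at most 0.0046. ENSBTAG00000032515 fell by 3.00 on the log2 scale in LF calves (SE 0.27, edgeR adjusted p = 0.0023) and was too low to be tested in H calves, where its mean went from 0.928 to 0.232 CPM. ENSBTAG00000008787 fell in H calves (−1.93, standard error 0.24, edgeR adjusted p = 0.0012), while its change of −1.44 in LF calves (SE 0.49) had an edgeR adjusted p of 0.061. In neither contrast between breeds was any of the 4 called, and the adjusted p-values of their differences in edgeR ran from 0.78 to 0.99. The standard errors of these differences reached 1.1 on the log2 scale, so an equal size of change is not shown.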

How the data were processed

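RNA from whole blood was sequenced as single-end reads. The authors trimmed reads with cutadapt, aligned them to the UMD3.1 cattle genome with STAR, rejected samples with few reads, and deposited raw read counts per gene, with an unstranded count and 1 count for each strand. The unstranded count was used. Rows that name no gene (unmapped, multimapping, outside genes or ambiguous reads) were left out, which kept 56.6 to 67.6% of the reads of the 14 CL libraries. STAR counts no multimapping read on a gene, so a gene that has a close copy may be counted too low, and genes overlapping on opposite strands cannot be told apart.

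Counts were analysed with edgeR 4.0.16 in R 4.3.3 (TMM normalization, default filter on low counts, robust quasi-likelihood test, Benjamini-Hochberg adjustment). The fit held the 14 CL libraries, age and calf. Differences between breeds were tested as the difference of the age terms of both breeds, with the calf as a block. Standard errors are the log2 fold change divided by the square root of F. CPM and log2 CPM (prior count 2) used TMM factors over all 88 libraries. The other statistics used Python 3.11.15 and scipy 1.17.1. DESeq2 1.42.0, other scalings, filters and libraries were tried as alternatives.

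Calves were paired by tag number, so by the labels both libraries of a pair come from the same animal. Their deviations from the group means correlated across genes with a mean r of 0.226, against −0.037 for different calves (exact permutation test over 5040 pairings, one-sided p = 0.0123). In single pairs r ran from −0.134 to 0.571, so the likeness was not seen in every pair. Calf numbers are those of the 72 h titles. Among 42 pairs of libraries of the same age, chi-square per degree of freedom was at least 49.8 on genes with at least 50 counts, so none was present more than once within an age. Libraries of different ages were not among these pairs. On simulated counts with 200 genes changed 2.5-fold, the CL fit recovered 177 with the block (7 false calls) and 165 without it (1 false call). The differences from LF and H recovered 128 and 141 (4 and 9 false calls). The DEG had smaller median fold changes, 1.72 for the upregulated and 1.82 for the downregulated genes, and recovery at those sizes was not tested. In the CL libraries edgeR called 731 genes with the block and 2 without it, a far wider gap than 177 against 165. The simulated counts had a calf effect of a size set by hand, drawn independently for each gene. Their spread between libraries was taken from a fit with the block. The 2 gaps therefore do not arise under like conditions.

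The block by calf was chosen with the knowledge that a fit without it had little power here. The comparison, the breeds set beside it and the rule for the genes given by identifier were also chosen with earlier results of these data known. That rule took the genes with the largest rises and falls that were called, moved the same way in 7 of 7 calves and averaged at least 1 CPM at either age. It had named more genes, by symbol, and was limited to 2 each way because the files do not pair identifiers with symbols. Planned lists of immune and blood cell genes, marker genes and promoter motifs were not used here for the same reason. The counts behind single values limit their precision, and floors of 3 counts cover counting error only.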

Additional observations from a re-analysis of the deposited data

Results flagged for a closer look

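In each group of 7 CL calves, the highest and the lowest calf were compared with the rest, and a calf was taken as standing apart when its gap to the nearest other calf exceeded the share of the group's range given by Dixon's 95% critical value for 7 samples. Of 47 groups of values examined, 9 held such a calf, and it was the highest of its group each time. Chance gives about 1 in 20 only where values are normally distributed. Some of these CPM were skewed upwards, such as ENSBTAG00000047816 at 72 h (mean 1.14, SD 2.5). The 9 can therefore not be set against that share. The groups are not independent, since genes and ages share calves.

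Calf 7 stood apart in the 2 genes with the largest rises before 168 h. For ENSBTAG00000047816 it had 4.42 CPM at 48 h and 6.79 CPM at 72 h, while the other 6 calves had at most 0.459 and 0.374 CPM. For ENSBTAG00000047449 it had 13.2 CPM at 0 h, 11.5 CPM at 48 h and 14.3 CPM at 72 h, where the others reached 2.79, 1.38 and 2.34 CPM. At 168 h, calf 5 stood apart for ENSBTAG00000047816, with 17.1 CPM against at most 7.48 CPM in the others.

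Calf 1 had 3.83 CPM of ENSBTAG00000032515 at 72 h, against at most 1.22 CPM in the others. Calf 5 had 4.04 CPM of ENSBTAG00000008787 at 0 h, against at most 2.16 CPM. It also had 35400 CPM of the most abundant gene, ENSBTAG00000038748, at 0 h, where the other 6 calves ran from 2160 to 13700 CPM.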

How the results depend on the processing

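The number of DEG at 168 h versus 72 h in CL calves (731, 5.72% of the genes tested) stayed within 1.5 times under 19 of 27 alternatives. With no replicate block edgeR called 2 genes (0.0157%), so the count in edgeR depends on the block by calf. It called 2 (0.0157%) when a change of 1.5-fold was the null, and 1695 (13.3%) with no fold change threshold. Without the calves that have an R library, 8 genes were upregulated and 96 downregulated (0.812%). The count was 277 (2.16%) without calves 4 and 5, 38 (0.295%) without calves 1, 4 and 5, 233 (1.82%) with library totals and without calves 4 and 5, and 85 (0.616%) with all 88 libraries and the L number. The last fits hold fewer libraries or more terms, and the cause of the lower counts was not tested beyond that. Leaving out 1 calf at a time gave 499 (3.9%, without calf 4) to 766 (5.96%, without calf 1), but the upregulated genes alone went from 162 to 93 without calf 4, 93 without calf 5 and 99 without calf 3. The alternatives without calves 4 and 5, without the most abundant gene and with all 88 libraries were chosen after seeing the data. Every gene called kept its direction in each alternative that tested it, apart from 1 downregulated gene in the counts of either strand. The alternatives share libraries with the choice of these genes, so this is no further test of them.

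The difference between CL and H changes went from 0 genes in edgeR to 61 (0.441%) in DESeq2, and stayed at 0 in edgeR with no replicate block, other scaling, no fold change threshold and 1 CL calf left out at a time, as did that between CL and LF. The block moved no count by over 1.5 times in the other comparisons (1914 without it at 48 h versus 0 h in CL, 1780 in LF and 1151 in H). None of the 4 genes given by identifier reversed. ENSBTAG00000032515 stayed called in 20 of 24 alternatives, ENSBTAG00000047816 in 10 of 24, and ENSBTAG00000047449 and ENSBTAG00000008787 each in 13 of 26. Removal of red cell genes and the gene list alternatives were not run, because the files do not pair identifiers with symbols.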
